A study of Mus musculus with 9 samples.

Results

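The mitotic kinesins are the motor genes Kif11, Kif15, Kif18a, Kif20a, Kif20b, Kif22, Kif23, Kif2c, Kif4 and Cenpe, taken by their gene symbols on the array. They made up 10 of 18193 named genes and 24 of the 34945 probe sets that carry a single symbol. Expression had been measured in 9 oral tumors of mice, with 1 Affymetrix array for each tumor and 3 tumors for each genotype. By their labels the missense allele p53R172H was paired with a null allele in p53R172H/- tumors and with a wild-type allele in p53R172H/+ tumors, and p53 was lost in p53-/- tumors. All mice were 1 year old, and by the series title the tumors of all 3 groups arose under activated Ras. Which promoter or cell type drives these alleles is not stated in the labels. Whether the p53R172H/+ tumors kept their wild-type allele was not checked, and the targeted gene is not reported here. Whether each tumor is from a mouse of its own is not stated in the labels. P-values therefore cover only the spread between these tumors.

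Mitotic kinesins are motor proteins that use ATP to walk along or take apart microtubules while a cell divides. Some build and hold the bipolar spindle, some carry and align chromosomes, and others bundle the central spindle and complete the separation of the daughter cells. Their genes are transcribed mainly late in the cell cycle, so that their RNA in a tissue follows the share of dividing cells, and in normal oral epithelium those lie in the basal layers. In p53 wild-type cells, p53 lowers many of these transcripts indirectly through p21 and the DREAM complex. That complex binds a promoter element called the cell cycle genes homology region (CHR), often found beside CCAAT boxes that bind NF-Y.

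Promoter sequences are shown here because they carry these elements close to the start of transcription. A window of 300 bases around the RefSeq start (build GRCm38.p6) was searched for 9 of the 10 genes, and Kif20a was left out. The CHR core TTTGAA, searched on both strands, was found in 7 of these 9 windows and in 17.9% of the 32851 windows of all genes. The CCAAT box was in 5 of 9 and in 37.4% of all windows, and both together in 4 of 9 and in 6.95% of all windows. The variant TTCGAA was in 0 of 9 and in 1.56% of all windows. Each line gives 120 bases before and 30 bases from the start onward, 5′ to 3′ on the strand of the gene. Capitals mark TTTGAA, or its reverse complement TTCAAA, and CCAAT, or its reverse complement ATTGG.
Kif11: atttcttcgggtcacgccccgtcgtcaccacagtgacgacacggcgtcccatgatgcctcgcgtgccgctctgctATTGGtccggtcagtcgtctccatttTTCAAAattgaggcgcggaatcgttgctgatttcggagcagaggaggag
Kif15: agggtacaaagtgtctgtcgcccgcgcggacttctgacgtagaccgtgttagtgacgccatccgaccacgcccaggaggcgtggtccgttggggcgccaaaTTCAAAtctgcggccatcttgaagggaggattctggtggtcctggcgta
Kif22: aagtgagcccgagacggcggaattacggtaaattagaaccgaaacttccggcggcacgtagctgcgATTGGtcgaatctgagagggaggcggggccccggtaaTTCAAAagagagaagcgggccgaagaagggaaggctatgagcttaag
Kif20b: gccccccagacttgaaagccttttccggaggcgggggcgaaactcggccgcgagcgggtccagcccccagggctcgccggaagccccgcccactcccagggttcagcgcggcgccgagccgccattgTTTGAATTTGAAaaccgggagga
Kif23: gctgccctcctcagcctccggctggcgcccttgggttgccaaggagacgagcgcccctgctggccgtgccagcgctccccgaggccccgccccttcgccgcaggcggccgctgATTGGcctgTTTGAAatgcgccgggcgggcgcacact
Kif4: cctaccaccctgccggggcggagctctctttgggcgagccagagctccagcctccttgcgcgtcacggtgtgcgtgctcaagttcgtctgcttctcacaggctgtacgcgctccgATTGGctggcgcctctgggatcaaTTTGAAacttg
Cenpe: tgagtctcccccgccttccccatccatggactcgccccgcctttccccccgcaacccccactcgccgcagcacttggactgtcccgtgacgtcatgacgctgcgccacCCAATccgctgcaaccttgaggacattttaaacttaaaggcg
The printed windows lie at chr19:37376262-37376411 (plus strand), chr9:122950961-122951110 (plus strand), chr7:127042391-127042540 (minus strand), chr19:34922238-34922387 (plus strand), chr9:61946770-61946919 (minus strand), chrX:100625945-100626094 (plus strand) and chr3:135212443-135212592 (plus strand). In Kif11 and Kif15 the element began 19 bases before the start, and in Kif22 it began 17 bases before. Kif11 and Kif22 also had a CCAAT box on the reverse strand, which began 45 and 54 bases before the start. In Kif23 and Kif4 the box lay just before the start and the TTTGAA just after it. Kif20b held the element in a direct repeat, at bases 8 to 13 and 14 to 19 after the start. In the window of Cenpe the search found a CCAAT box and no TTTGAA, in that of Kif18a neither. The Kif2c window held a TTTGAA 103 bases upstream, but its start base lay well inside the annotated gene (chr4:117159633-117182624). A match to these letters is a description of the sequence and not evidence of binding.

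Signals are linear MAS5 intensities as the authors deposited them. For tests, values under a floor of 52.6 signal units were set to this floor before log2 transformation. Of the 24 probe sets, 16 lay above the floor in all 9 tumors, 3 in some of them and 5 in none. The 5 were the second probe sets of Kif18a and Cenpe and 3 of the 4 probe sets of Kif20b. At gene level each gene was represented by its brightest probe set and had to reach a mean of 115 signal units. This kept 8 of the 10 genes. Kif20b, at a mean of 111, and Kif15, at 58.9, lay below this and were fitted only without the filter and at the level of probe sets. The arrays were alike in brightness, with median signals of 109 to 123, and their number limits the precision. The labels call the tissue oral tumor. Epithelial markers were strong on average, with a mean log2 signal of 11 such genes of 12.80 to 13.26 in the 9 tumors. Single genes of this list could vary more. Krt5 stayed at 10434 to 13213 signal units, while Krt4 ran from 472 (p53-/- tumor 3) to 13502 (p53R172H/- tumor 2). In bulk tumors, fewer dividing cells and less RNA per dividing cell cannot be told apart.

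Between p53R172H/- and p53-/- tumors, Kif11, Kif20a, Cenpe, Kif18a and Kif23 had 1.47 to 2.02 times the signal in p53R172H/- tumors, with no overlap between the groups. Kif20b, fitted without the filter, had 1.85 times the signal, again with no overlap. No kinesin passed an adjusted p of 0.05 with limma, so the differences are given as values. The smallest adjusted p of a kinesin was 0.211, for Kif20a, and 0 of 12177 genes passed (0% called). At an unadjusted p under 0.05, 5 of the 8 tested kinesins were higher in p53R172H/- tumors and 0 were lower, against 6.46% of all genes higher and 9.03% lower. For these 5 the groups did not overlap, as was so for 9.09% of all genes in that direction. The median log2 fold change of the 8 was 0.62, and that of all tested genes was -0.03. With the mean of all probe sets of a gene in place of the brightest it was 0.34. For Kif18a and Cenpe that mean includes a probe set below the floor in all tumors, which can show no difference. Without probe sets of the suffix x_at, whose probes may also match other transcripts, it was 0.68 (where a gene had another probe set). With p53R172H/+ tumors set against the same p53-/- tumors, 4 of 8 were higher at an unadjusted p under 0.05, against 4.75% of all genes. The median was 0.34 here (0.20 with the mean of all probe sets of a gene, 0.40 without x_at probe sets). The groups did not overlap for these 4, Kif11, Kif18a, Kif20a and Cenpe, as was so for 7.09% of all genes. These 2 comparisons share the p53-/- tumors, so their values are not independent of each other.

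**Figure D1:**
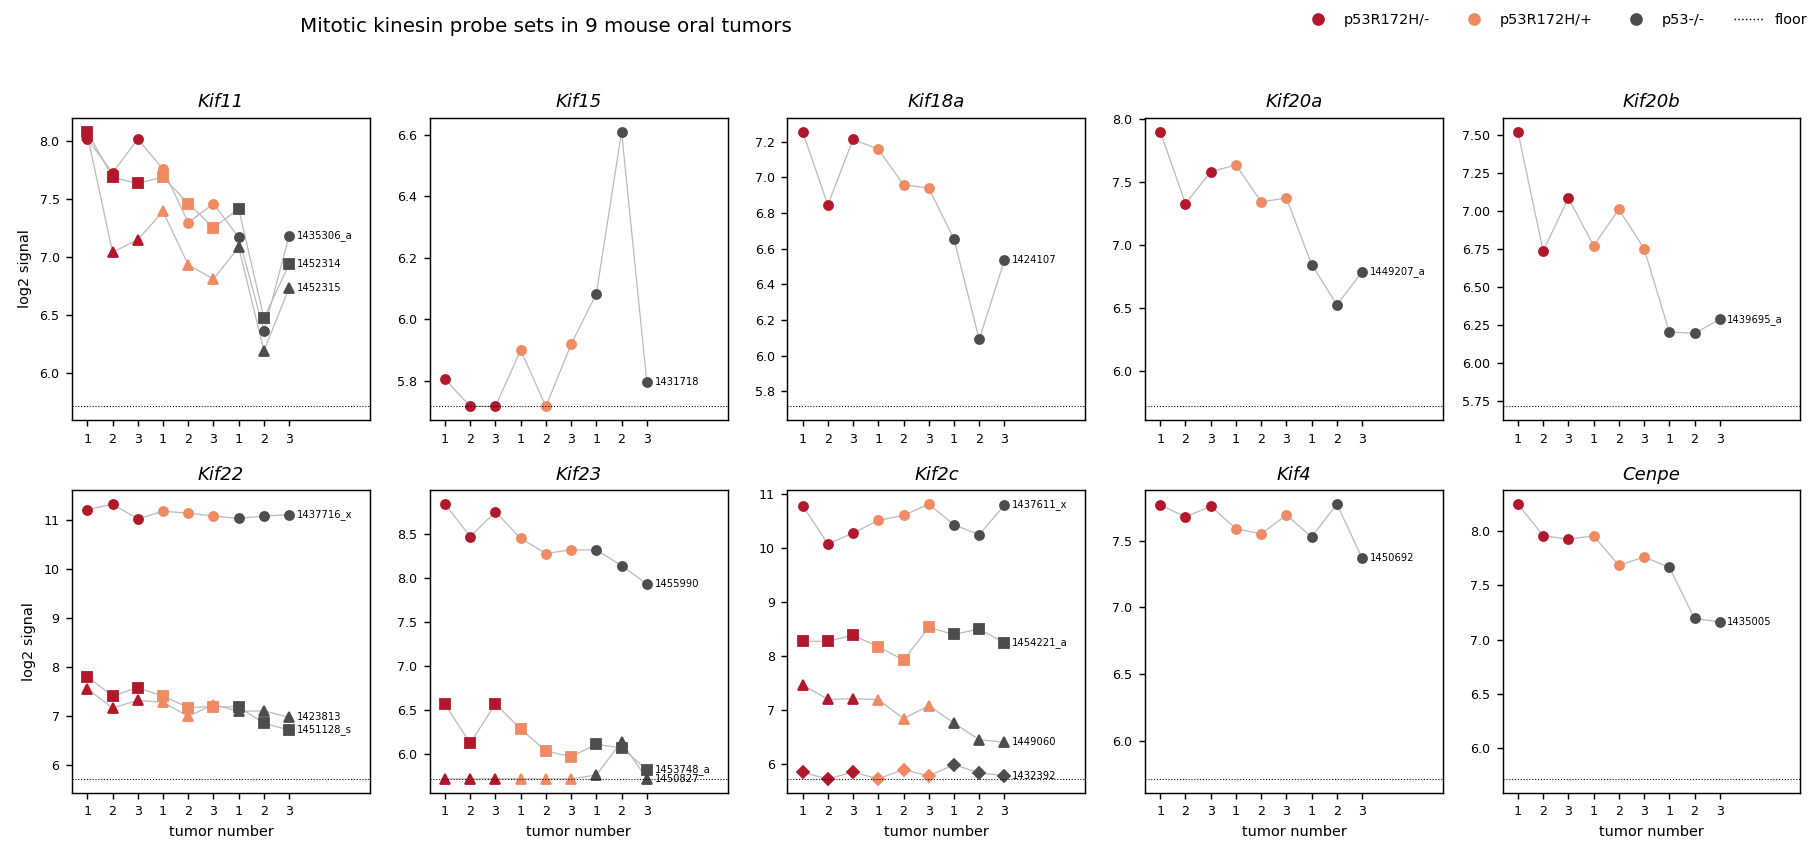
Log2 signal of each mitotic kinesin probe set (vertical axis, 1 panel per gene, each with its own scale) in the 3 p53R172H/-, 3 p53R172H/+ and 3 p53-/- tumors (horizontal axis). Points are single tumors, lines join the values of 1 probe set for the eye only, the dotted line is the floor, and the 5 probe sets below it in all tumors are left out. Kif20b lies at 107 to 184 signal units in the p53R172H/- and 108 to 129 in the p53R172H/+ tumors, all above the 73.3 to 78.2 of the p53-/- tumors.

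Kif11 (chr19:37376382-37421863, GRCm38.p6) encodes the bipolar motor that slides spindle poles apart, and its inhibition arrests cells with a monopolar spindle. Its brightest probe set (1435306_a_at) read 259.7, 212 and 259 in p53R172H/- tumors 1 to 3, 217, 157 and 176 in p53R172H/+ tumors, and 144, 82.5 and 146 in p53-/- tumors. On this probe set every tumor with the missense allele lay above every p53-/- tumor, and p53-/- tumor 2 was the lowest of all. The group means were 244 ± 27.5 in p53R172H/-, 183 ± 30.2 in p53R172H/+ and 124 ± 36.0 in p53-/- tumors (SD, n = 3 each). The log2 fold change was 1.01 ± 0.23 (SE, limma adjusted p = 0.216) for p53R172H/- over p53-/- tumors and 0.60 ± 0.23 (SE, adjusted p = 0.443) for p53R172H/+ over p53-/- tumors. Without p53-/- tumor 2 they were 0.74 for p53R172H/- and 0.33 for p53R172H/+ tumors. The other probe sets of Kif11 gave 0.86 ± 0.26 (1452314_at) and 0.74 ± 0.35 (1452315_at, SE each) for p53R172H/- over p53-/- tumors. They read 199 to 271 and 132 to 266 in p53R172H/- tumors, against 89.1 to 171 and 73.3 to 136 in p53-/- tumors, so that only the last of the 3 probe sets overlapped between these groups. For p53R172H/+ over p53-/- tumors they gave 0.52 ± 0.26 and 0.37 ± 0.35 (SE each) with overlap on both, and the separation of these groups rests on 1 of the 3 probe sets.

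Kif15 (chr9:122951081-123018733) encodes a motor that helps to keep the spindle bipolar beside Kif11. Its only probe set (1431718_at) was dim, at 55.9, 41.0 and 45.5 in p53R172H/- tumors, 59.7, 46.2 and 60.5 in p53R172H/+ tumors, and 67.8, 97.7 and 55.5 in p53-/- tumors. The values lay at or near the floor, 3 of the 9 under it, and the groups overlapped. The order of the group means was the opposite of that of Kif11. Without the filter the log2 fold change was -0.42 ± 0.19 (SE, adjusted p = 0.387) for p53R172H/- over p53-/- tumors, and it was -0.19 without p53-/- tumor 2, the highest sample. For p53R172H/+ over p53-/- tumors it was -0.32 ± 0.19 (SE, adjusted p = 0.588) and -0.09 without that tumor.

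Cenpe (chr3:135212563-135273540) encodes the kinetochore motor that carries chromosomes to the spindle equator. Its bright probe set (1435005_at) read 304, 249 and 243 in p53R172H/- tumors, 248, 205 and 217 in p53R172H/+ tumors, and 203, 146 and 143 in p53-/- tumors. The highest p53-/- tumor was close below the lowest p53R172H/+ tumor, and all tumors with the missense allele lay above it. The log2 fold change over p53-/- tumors was 0.70 ± 0.16 (SE, limma adjusted p = 0.216) in p53R172H/- and 0.46 ± 0.16 (SE, adjusted p = 0.416) in p53R172H/+ tumors.

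Kif18a (chr2:109280738-109341749) encodes a motor that shortens and steadies kinetochore microtubules so that chromosomes settle at the equator. It read 153, 115 and 148 in p53R172H/- tumors, 143, 124 and 123 in p53R172H/+ tumors, and 101, 68.2 and 92.8 in p53-/- tumors (1424107_at). The groups with the missense allele were alike and neither overlapped with the p53-/- group. Relative to p53-/- tumors, the log2 fold change was 0.68 ± 0.18 (SE, limma adjusted p = 0.216) in p53R172H/- and 0.59 ± 0.18 (SE, adjusted p = 0.373) in p53R172H/+ tumors. Its second probe set (1457895_at) stayed at 11.9 to 25.6 signal units, below the floor, in all 9 tumors.

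Kif22 (chr7:127027729-127042467) and Kif4 (chrX:100626065-100727271) encode chromokinesins, motors that sit on chromosome arms and push them away from the spindle poles or shape mitotic chromosomes. The probe sets of Kif22 disagreed in size. The one with the suffix x_at (1437716_x_at), a design in which some probes may also match other transcripts, was the brightest and read 2381, 2570.0 and 2090.1 in p53R172H/- tumors, 2326, 2266 and 2172 in p53R172H/+ tumors, and 2100.0, 2178 and 2209.7 in p53-/- tumors. These groups overlapped, and the log2 fold change of p53R172H/- over p53-/- tumors was 0.11 ± 0.09 (SE, adjusted p = 0.517). The next probe set (1451128_s_at) read 224, 169.7 and 191 in p53R172H/- tumors, 169.8, 144 and 146 in p53R172H/+ tumors, and 146, 115 and 105 in p53-/- tumors. Here the p53R172H/- tumors lay above all p53-/- tumors, with a log2 fold change of 0.68 ± 0.16 (SE), while the p53R172H/+ tumors overlapped with them (0.34 ± 0.16 SE). The third (1423813_at) gave 0.29 ± 0.13 (SE) for p53R172H/- over p53-/- tumors, at 143 to 189 signal units against 126 to 138.

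Kif4 had 1 probe set (1450692_at), which read 218, 205 and 216 in p53R172H/- tumors, 193, 187 and 207 in p53R172H/+ tumors, and 184, 219 and 165 in p53-/- tumors. The p53-/- tumors spanned the whole range of the other groups, and tumor 2, the lowest p53-/- tumor for Kif11 and Kif18a, was the highest of all 9 for Kif4. The log2 fold change over p53-/- tumors was 0.18 ± 0.12 (SE) in p53R172H/- and 0.05 ± 0.12 (SE) in p53R172H/+ tumors (limma adjusted p = 0.463 and 0.881), and the groups overlapped in both comparisons.

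Kif2c (chr4:117159633-117182624) encodes a motor that does not walk but takes microtubules apart, and corrects wrong attachments of chromosomes. Its 4 probe sets did not follow each other. The brightest, another x_at probe set (1437611_x_at), read 1773, 1082 and 1242 in p53R172H/- tumors, 1465, 1562 and 1806 in p53R172H/+ tumors, and 1385, 1217 and 1788 in p53-/- tumors, with a log2 fold change of -0.11 ± 0.20 (SE) for p53R172H/- over p53-/- tumors. A further one (1454221_a_at) read 309, 309 and 334 in p53R172H/- tumors, 288, 243 and 369.6 in p53R172H/+ tumors, and 337, 363 and 303 in p53-/- tumors, and overlapped as well (-0.07 ± 0.15 SE). The third (1449060_at) read 176, 147 and 147 in p53R172H/- tumors, 146, 114 and 135 in p53R172H/+ tumors, and 108, 87.0 and 84.3 in p53-/- tumors. On this probe set all tumors with the missense allele lay above all p53-/- tumors, by 0.76 ± 0.14 (SE, adjusted p = 0.282 over all probe sets) in p53R172H/- and 0.50 ± 0.14 (SE, adjusted p = 0.448) in p53R172H/+ tumors. The fourth (1432392_at) stayed near the floor at 48.8 to 63.1. Pearson's r between the last 3 probe sets over the 9 tumors was -0.24 to 0.00, against 0.83 to 0.93 among the 3 probe sets of Kif11. The gene thus has no single direction across its probe sets.

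Kif20a, Kif20b and Kif23 encode motors of the central spindle and of cytokinesis. Kif20a, which brings the chromosomal passenger complex to the central spindle, read 239, 160.4 and 192 in p53R172H/- tumors, 198, 162 and 166 in p53R172H/+ tumors, and 115, 91.9 and 110.2 in p53-/- tumors (1449207_a_at). The lowest tumor with the missense allele stood well above the highest p53-/- tumor. The means were 197 ± 39.3 in p53R172H/-, 175 ± 20.1 in p53R172H/+ and 106 ± 12.1 in p53-/- tumors (SD, n = 3 each). The log2 fold change over p53-/- tumors was 0.89 ± 0.17 (SE, limma adjusted p = 0.211) in p53R172H/- and 0.73 ± 0.17 (SE, adjusted p = 0.360) in p53R172H/+ tumors, and with 1 tumor left out in turn it stayed within 0.74 to 1.02 and 0.64 to 0.80.

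Kif20b (chr19:34922335-34975750), a motor that acts late in cytokinesis, read 184, 107 and 136 in p53R172H/- tumors, 109, 129 and 108 in p53R172H/+ tumors, and 73.8, 73.3 and 78.2 in p53-/- tumors (1439695_a_at). The means were 142 ± 38.9 in p53R172H/-, 115 ± 11.8 in p53R172H/+ and 75.1 ± 2.67 in p53-/- tumors (SD, n = 3 each), and the p53-/- tumors were tightly grouped below all others. Without the filter the log2 fold change over p53-/- tumors was 0.88 ± 0.19 (SE, limma adjusted p = 0.251) in p53R172H/- and 0.62 ± 0.19 (SE, adjusted p = 0.415) in p53R172H/+ tumors. Its other 3 probe sets stayed below the floor in all tumors.

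Kif23 (chr9:61917277-61946810), which forms the centralspindlin complex with the protein of Racgap1, read 456, 353 and 429.5 in p53R172H/- tumors, 348, 309 and 318 in p53R172H/+ tumors, and 318, 282 and 243 in p53-/- tumors (1455990_at). The p53R172H/- tumors lay above both other groups, while the p53R172H/+ tumors overlapped with the p53-/- tumors. The fitted difference was 0.56 ± 0.13 (SE, limma adjusted p = 0.216) for p53R172H/- over p53-/- tumors and 0.22 ± 0.13 (SE, adjusted p = 0.566) for p53R172H/+ over p53-/- tumors on the log2 scale. A dimmer probe set (1453748_a_at) ran alongside, at 94.6, 69.6 and 94.8 in p53R172H/- tumors, 77.9, 65.4 and 62.6 in p53R172H/+ tumors, and 69.0, 67.1 and 56.5 in p53-/- tumors. The third (1450827_at) lay under the floor in 7 of 9 tumors.

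**Figure D2:**
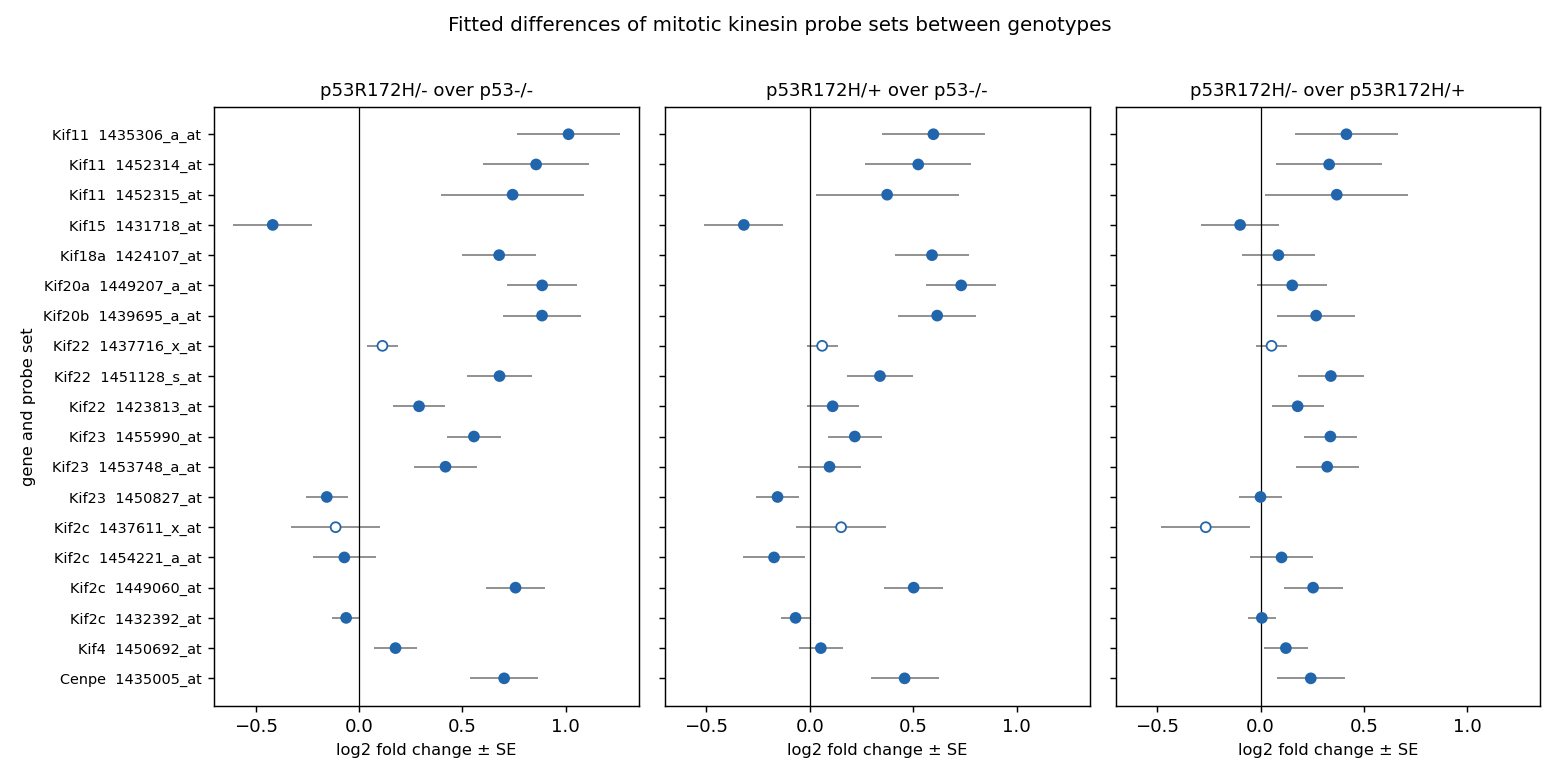
Fitted log2 fold change (horizontal axis, bars are ± 1 SE, n = 3 tumors a group) of each mitotic kinesin probe set above the floor in at least 1 tumor, for p53R172H/- over p53-/-, p53R172H/+ over p53-/- and p53R172H/- over p53R172H/+. Open circles are x_at probe sets. The values of Kif11, Kif18a, Kif20a, Kif20b and Cenpe lie right of 0 in all 3 panels, and the Kif2c probe sets scatter from -0.11 to 0.76 in the first panel.

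By their labels, p53R172H/- and p53R172H/+ tumors differ in the second allele, though whether the wild-type allele was kept was not checked. Fibroblast and skeletal muscle genes also differed between these groups, with median log2 fold changes of -0.67 and 1.94. A part of the second allele cannot be told apart from such differences. In p53R172H/- over p53R172H/+ tumors 7 of 8 tested kinesins had a log2 fold change above 0, as 48.1% of all genes did. The median of the 8 was 0.14 against -0.01 over all genes. With each gene on its brightest probe set, Kif23 alone had an unadjusted p under 0.05 and no overlap between the groups. Of all genes, 2.03% and 5.26% were higher by these measures. The log2 fold change of Kif23 was 0.34 ± 0.13 (SE, limma adjusted p = 0.946), and its dimmer probe set 1453748_a_at overlapped (0.32 ± 0.15 SE). Kif2c had no overlap on 1449060_at (0.25 ± 0.14 SE), but overlapped on its other probe sets. Kif11 had 0.42 ± 0.23 (SE), Cenpe 0.24 ± 0.16 (SE), Kif20a 0.15 ± 0.17 (SE) and Kif18a 0.09 ± 0.18 (SE), all with overlapping groups. Leaving out p53R172H/- tumor 1 gave a median of 0.07, leaving out p53R172H/- tumor 2 gave 0.25, and taking the muscle level as a covariate gave 0.25. Kif23 lost its unadjusted p under 0.05 without p53R172H/- tumor 1 or 3 or p53R172H/+ tumor 2 or 3.

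With both groups of the missense allele set against the p53-/- tumors, 5 of 8 kinesins were higher at an unadjusted p under 0.05, against 6.84% of all genes, and 0 passed the adjusted threshold with limma (0% of all genes). For 4 of them, Kif11, Kif18a, Kif20a and Cenpe, all 6 tumors lay above all 3 p53-/- tumors, as was so for 3.33% of all genes. Fitted log2 fold changes were 0.81 ± 0.14 (SE, adjusted p = 0.184) for Kif20a and 0.81 ± 0.20 (SE, adjusted p = 0.196) for Kif11.

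Counted over probe sets, p53R172H/- tumors lay above all p53-/- tumors on 11 of 24 kinesin probe sets (7.5% of all probe sets), and p53R172H/+ tumors on 6 (5.51% of all). On 0 of the 24 did either group lie wholly below the p53-/- tumors, where 10.5% of all probe sets did so for p53R172H/- and 6.97% for p53R172H/+. Probe sets of 1 gene share their RNA and are not replicates. Of the 16 probe sets above the floor in every tumor, 11 had their highest value in p53R172H/- tumor 1, while 7 had their lowest in p53-/- tumor 3 and 6 in p53-/- tumor 2. The log2 mean of the 10 genes was 8.34, 7.99 and 8.14 in p53R172H/- tumors 1 to 3, 8.09, 7.96 and 8.01 in p53R172H/+ tumors, and 7.79, 7.62 and 7.70 in p53-/- tumors. The median log2 fold change of p53R172H/- over p53-/- tumors was 0.54 without p53R172H/- tumor 1 and 0.53 without p53-/- tumor 3. For p53R172H/+ against p53-/- tumors the count of 4 kinesins became 2 without p53R172H/+ tumor 1 or without p53-/- tumor 2, and 3 without p53-/- tumor 3.

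**Figure D3:**
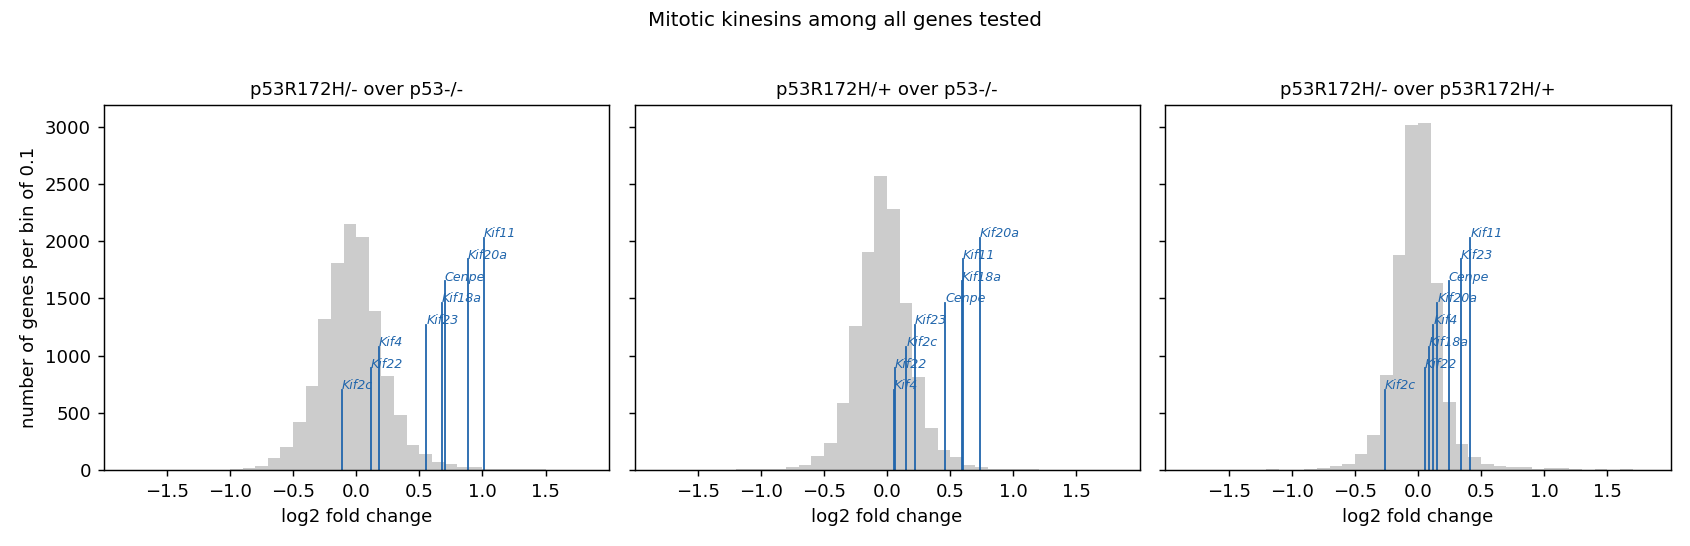
Number of tested genes (vertical axis) by log2 fold change in bins of 0.1 (horizontal axis, from -2 to 2, with a few genes outside) for the 3 pairwise comparisons, with the 8 tested kinesins as labelled lines. The height of a line has no meaning. For p53R172H/- over p53-/- tumors Kif11, Kif20a, Cenpe, Kif18a and Kif23 stand in the right tail, and Kif4, Kif22 and Kif2c lie in the bulk. Kif22 and Kif2c are drawn on their brightest probe sets, which are x_at probe sets. Their other probe sets gave 0.68 and 0.29 for Kif22, and 0.76, -0.07 and -0.06 for Kif2c.

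A set of 7 kinesins was picked from these same data, as those with r over 0.7 to at least 5 others. High r within the set therefore follows in large part from this choice. The share of all gene pairs with such an r was not computed. With each gene on its brightest probe set that is not an x_at, 21 of the 45 pairs had a Pearson's r over 0.7 across the 9 tumors, and these were the pairs among Kif11, Kif18a, Kif20a, Kif20b, Kif22, Kif23 and Cenpe, with r of 0.78 to 0.98. After the group means were removed the r of these pairs was 0.19 to 0.94, with a median of 0.64. Kif4, Kif15 and Kif2c, each on the probe set so chosen, had no r over 0.7 with any other kinesin. For Kif2c this depended on the probe set. On its dimmer probe set 1449060_at, r with the 7 genes was 0.84 to 0.98, and 0.20 to 0.94 after the group means were removed. On 1432392_at, which lay near the floor, r with the 7 genes was -0.26 to 0.02. These values are descriptions over 9 tumors that share 3 group means, and all genes of a tumor come from 1 array.

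**Figure D4:**
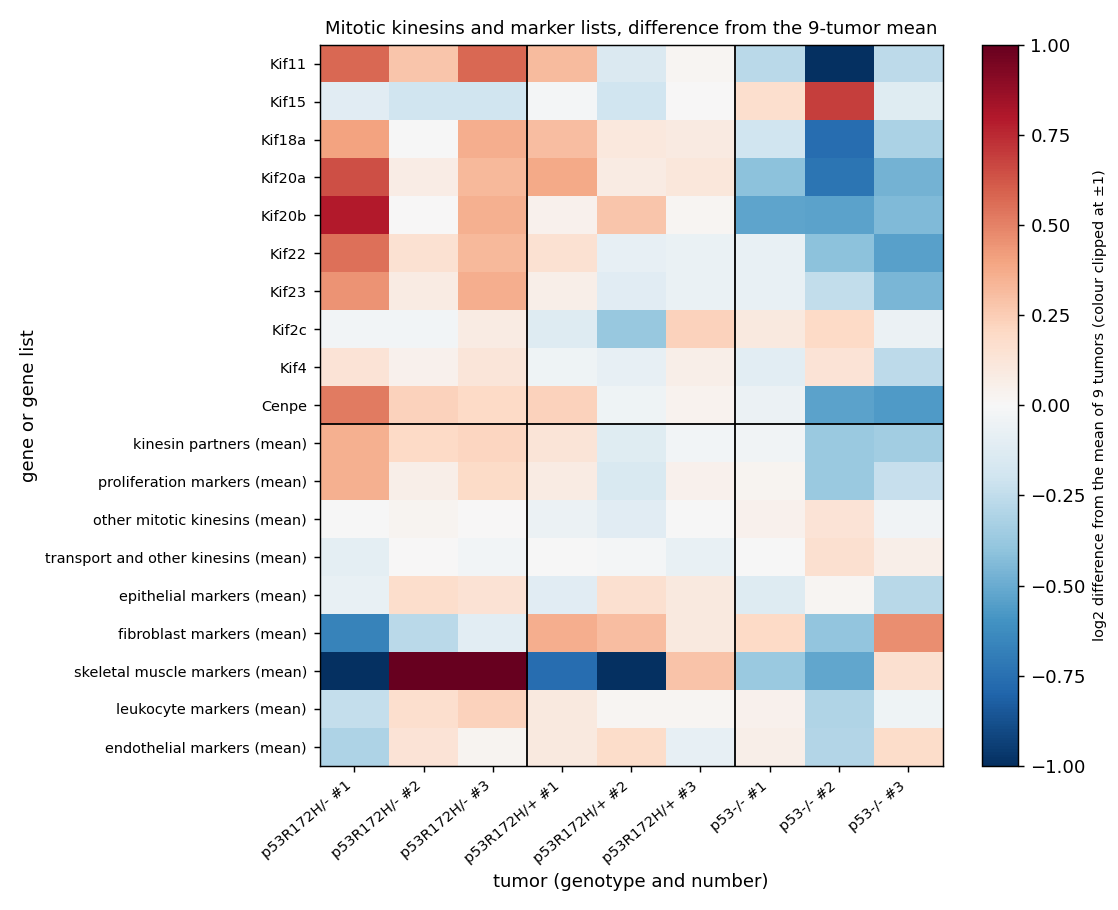
Difference of each kinesin (rows above the line, on its brightest probe set that is not an x_at) and of the mean of each gene list (rows below) from its mean over the 9 tumors, in log2 units with colour clipped at ± 1, for the 3 p53R172H/-, 3 p53R172H/+ and 3 p53-/- tumors (columns). Kif11, Kif18a, Kif20a, Kif20b, Kif22, Kif23, Cenpe and the partners are red in p53R172H/- tumor 1 and blue in p53-/- tumors 2 and 3, while the muscle row is dark red in p53R172H/- tumors 2 and 3 and dark blue in tumor 1.

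Those of the 12177 tested genes that are not listed kinesins were ranked by r with the mean log2 signal of the 10 kinesins. The top of so long a ranking over 9 tumors has high r in part through selection. Kif22 and Kif2c entered this mean on their x_at probe sets. The genes that most resembled it were Bub1, a kinase of the spindle checkpoint (r = 0.98, and 0.94 after group means were removed), Exosc8, an RNA exosome subunit (0.97 and 0.88), and Sgo1, the protector of centromeric cohesion (0.97 and 0.93). They were followed by Cep55, an abscission factor (0.97 and 0.86), Smc2, a condensin subunit (0.96 and 0.82), Prim1, a primase subunit (0.96 and 0.94), Ccna2, the cyclin of S phase and G2 (0.96 and 0.86), and Spdl1, a kinetochore adaptor of dynein (0.96 and 0.81). Bub1 read 317, 214 and 279 in p53R172H/- tumors, 271, 204 and 219 in p53R172H/+ tumors, and 191, 153 and 162 in p53-/- tumors. As for Kif18a, Kif20a, Kif23 and Cenpe, p53R172H/- tumor 1 was the highest and p53-/- tumors 2 and 3 were the lowest.

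Proteins that work with these motors are encoded by a list of 18 kinesin partner genes, of which 16 were tested. In p53R172H/- over p53-/- tumors 15 of the 16 had a log2 fold change above 0 (43.9% of all genes), with a median of 0.58, and 13 were higher at an unadjusted p under 0.05 (6.46% of all genes). Among them were Nusap1, a microtubule-bundling spindle protein (1.01 ± 0.16 SE, limma adjusted p = 0.194, but -0.10 on another probe set), Ect2, the exchange factor that starts the cleavage furrow (0.75 ± 0.15 SE, adjusted p = 0.216), and Birc5, a subunit of the chromosomal passenger complex (0.67 ± 0.14 SE, adjusted p = 0.216). Ect2 read 341, 397 and 396 in p53R172H/- tumors, 346, 277 and 322 in p53R172H/+ tumors, and 275, 192 and 213 in p53-/- tumors. In p53R172H/+ over p53-/- tumors 15 of the 16 were again above 0 (43.9% of all genes here too), with a median of 0.27, and 5 were higher at an unadjusted p under 0.05 (4.75% of all genes). In p53R172H/- over p53R172H/+ tumors the median was 0.28, with 4 higher at an unadjusted p under 0.05 (2.03% of all genes), 6 with no overlap (5.26% of all genes), and the smallest p for Cdca8, Anln and Cenpf (0.42 ± 0.15, 0.37 ± 0.13 and 0.40 ± 0.15 SE). The adjusted threshold was passed by no partner in these comparisons.

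Of 13 tested proliferation genes all were above 0 in p53R172H/- over p53-/- tumors (43.9% of all genes), with a median of 0.34, and 6 were higher at an unadjusted p under 0.05 (6.46% of all genes). Mki67, the marker of cycling cells, read 1180.2, 1195 and 1205 in p53R172H/- tumors, 900.1, 778 and 859.7 in p53R172H/+ tumors, and 1055, 674 and 794 in p53-/- tumors. It thus was highest in the p53R172H/- tumors and overlapped between the other groups, with a log2 fold change of 0.53 for p53R172H/- over p53-/- tumors and 0.03 for p53R172H/+ over p53-/- tumors. Top2a, which untangles sister DNA in mitosis, had 0.62 and 0.17 in these comparisons, and the mitotic cyclin Ccnb2 had 0.93 ± 0.15 and 0.50 ± 0.15 (SE). The genes of the replicative helicase were closer to 0, with 0.07 for Mcm3 and 0.34 for Mcm6 at the ends of their range for p53R172H/- over p53-/- tumors.

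Of the 4 tested further kinesins with a role in mitosis, 2 were above 0 in p53R172H/- over p53-/- tumors, with a median of -0.02. Kifc1, the minus-end motor that focuses spindle poles, read 167, 152 and 166 in p53R172H/- tumors, 179, 137 and 156 in p53R172H/+ tumors, and 198, 192 and 180.3 in p53-/- tumors. It was lower on average in both groups with the missense allele, with log2 fold changes of -0.24 ± 0.12 in p53R172H/- and -0.28 ± 0.12 in p53R172H/+ tumors (SE, adjusted p = 0.367 and 0.468 with limma). Kif18b, a relative of Kif18a that trims astral microtubules, had -0.08 ± 0.14 and -0.27 ± 0.14 (SE) in the same comparisons.

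Among 24 tested transport kinesins and light chains, 10 were above 0 for p53R172H/- over p53-/- tumors (43.9% of all genes), with a median of -0.07. At an unadjusted p under 0.05, 2 were higher (6.46% of all genes) and 4 lower (9.03% of all genes). Klc3, a kinesin light chain, read 1321, 1469 and 1359 in p53R172H/- tumors, 1508, 1559 and 1787 in p53R172H/+ tumors, and 1928, 2047 and 1954 in p53-/- tumors. Its groups did not overlap in any of the 3 comparisons. The log2 fold change was -0.52 ± 0.09 (SE, limma adjusted p = 0.194) for p53R172H/- and -0.29 ± 0.09 (SE, adjusted p = 0.370) for p53R172H/+ over p53-/- tumors. Kif1c, a cargo motor, had -0.32 ± 0.11 and -0.22 ± 0.11 (SE) on its brightest probe set, with other probe sets at up to 0.19 and 0.04.

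The 22 tested regulators of these promoters, the DREAM, MuvB, E2F and NF-Y genes with Foxm1, Mybl2 and Cdkn1a, had a median log2 fold change of -0.01 both for p53R172H/- and for p53R172H/+ over p53-/- tumors. Foxm1, the activator of late cell cycle genes, read 176, 151 and 169.7 in p53R172H/- tumors, 139, 169.6 and 162 in p53R172H/+ tumors, and 195, 165 and 163 in p53-/- tumors, with overlap throughout. Mybl2, another such activator, was lower on average in p53R172H/- tumors (-0.60 ± 0.18 SE, limma adjusted p = 0.246), at 139, 100.5 and 118 against 167, 203 and 169 in p53-/- tumors. Its other probe set gave -0.08. E2f7, a repressor of E2F targets, was higher on average in both groups, by 0.68 ± 0.21 in p53R172H/- and 0.78 ± 0.21 in p53R172H/+ tumors (SE, adjusted p = 0.254 and 0.364 with limma). Cdkn1a, which encodes p21, had -0.21 on the brighter and 0.52 on the dimmer of its probe sets for p53R172H/- over p53-/- tumors, so its direction depends on the probe set.

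Markers of other cell types also differed between the tumors. The mean log2 signal of 18 skeletal muscle genes was 6.45, 10.51 and 9.41 in p53R172H/- tumors, 7.10, 6.29 and 8.15 in p53R172H/+ tumors, and 7.50, 7.35 and 8.03 in p53-/- tumors. Of 17 tested muscle genes 16 were above 0 for p53R172H/- over p53-/- tumors (43.9% of all genes). Only 1 was higher at an unadjusted p under 0.05 (6.46% of all genes), and for 0 did the groups not overlap (9.09% of all genes). The tumor with the least muscle signal had the highest kinesin mean of its group in p53R172H/- (tumor 1), but the lowest of its group in p53R172H/+ (tumor 2) and in p53-/- (tumor 2). The mean of 12 fibroblast genes was 9.72 to 10.28 in p53R172H/- tumors, 10.48 to 10.75 in p53R172H/+ tumors and 9.99 to 10.85 in p53-/- tumors, and the p53R172H/- and p53-/- ranges of this mean overlapped. Of 11 tested fibroblast genes, 9 were lower at an unadjusted p under 0.05 in p53R172H/- than in p53-/- tumors (9.03% of all genes), 8 with no overlap (13.8% of all genes). The median log2 fold change was -0.72, but Dcn and Pdgfra were above 0 (0.64 ± 0.71 and 0.46 ± 0.62 SE). In p53R172H/- over p53R172H/+ tumors 9 were again lower at an unadjusted p under 0.05 (2.98% of all genes), 8 with no overlap (6.64% of all genes), with a median of -0.67. No fibroblast gene passed the adjusted threshold with limma in these comparisons. The ratio of 3′ to 5′ actin probe sets, a measure of RNA integrity, was 1.31 to 1.56 in p53R172H/-, 1.36 to 1.48 in p53R172H/+ and 1.50 to 1.69 in p53-/- tumors. With the muscle level as a covariate the median of the 8 kinesins for p53R172H/- over p53-/- tumors was 0.69, and with the fibroblast level it was 0.58. The part of RNA integrity in these differences was not tested. Leukocyte and endothelial markers had medians of 0.14 and -0.02 for p53R172H/- over p53-/- tumors, and 0.24 and 0.05 for p53R172H/+ over p53-/- tumors. The 11 tested epithelial genes had a median of 0.04 in both comparisons. For p53R172H/- over p53-/- tumors 1 of them, Epcam, was higher at an unadjusted p under 0.05 (6.46% of all genes). It had no overlap (0.85 ± 0.32 SE), but was at -0.17 on another probe set.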

How the data were processed

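Total RNA of 9 mouse oral tumors, 3 of each genotype, was hybridised to 1 array each as biotin-labelled cRNA, per the labels' protocols. The intensities deposited by the authors are linear signals, 1 per probe set and array, from MAS5 per the submitters' processing notes. The version of MAS5 and its scaling target were not found in these sources. Gene symbols came from the platform annotation, and probe sets with several symbols (932) or none (9160) were left unnamed.

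Values under the 20th percentile (52.6 signal units) were set to that floor before log2 transformation, without renormalization, so a fold change of a dim probe set is understated. Genes were represented by the probe set with the highest mean, and those with a mean under 115 signal units, the median over non-control probe sets, were left out, which left 12177 of 18193. A mean per genotype was fitted to all 9 arrays with limma 3.58.1 in R 4.3.3 (functions lmFit and eBayes, trend on), and two-sided p-values were Benjamini-Hochberg adjusted over all genes tested, with a threshold of 0.05. A second fit took all 34945 probe sets with 1 symbol and no filter. The labels give no batch. Arrays of any pair differed by a root mean square of 0.239 to 0.487 in log2 and no pair was a duplicate. Pairs with p53-/- tumor 2 differed by 0.373 to 0.487, and all other pairs by at most 0.413. The array of this tumor also had the highest median signal (123) and the highest 3′ to 5′ actin ratio (1.69). Without this tumor the median log2 fold change of the tested kinesins was 0.54 for p53R172H/- over p53-/- tumors. Tumors that share a number across genotypes did not deviate together (r of -0.42 to 0.22), so the numbers were not treated as pairs. In simulated data with 200 of 12177 genes changed, 80.8% of 2-fold and 96.5% of 4-fold changes were called for p53R172H/- over p53-/- tumors. Of the calls, 4.60% were false. The simulated noise was independent between genes, whereas kinesins and muscle genes varied together across the real tumors. The shares called therefore need not hold for these tumors.

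The kinesins and the gene lists were chosen with earlier results of these data known. Named were all 10 kinesins, in each list the 3 genes with the smallest p in a comparison (not all of which are printed) with Foxm1, Mybl2, Cdkn1a, Mki67 and Top2a, and the 8 genes most correlated with the mean of the kinesins. The values of Mcm3 and Mcm6 were chosen as the ends of a range after their values were seen. Alternatives were other normalizations, floors, filters, probe set choices and variance models, marker covariates, tumor number as a blocking term, and each tumor left out in turn. Settings without x_at probe sets, and the leaving out of tumors for all probe sets, were added after the data were seen.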

Additional observations from a re-analysis of the deposited data

How the results depend on the processing

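No kinesin passed an adjusted p of 0.05 under any of the 22 alternatives with limma. For 686 of 704 values of single kinesins the direction was kept, but part of these values could not turn. They cover the 8 kinesins of the main fit and leave out Kif15 and Kif20b. Fits without the filter or the variance trend, or on only the groups compared, leave a fitted difference as it is. So does leaving out a tumor of a group not compared. The count is therefore no measure of stability. With the mean of all probe sets of a gene the median log2 fold change of the tested kinesins was 0.34 for p53R172H/- over p53-/-, 0.20 for p53R172H/+ over p53-/- and 0.28 for both groups over p53-/- tumors. Without x_at probe sets these medians were 0.68, 0.40 and 0.54. With the tumor number as a replicate block, without evidence of pairing, 0 genes and 0 kinesins were called in the 4 comparisons. In this balanced design the block leaves fitted differences as they are (kinesin median 0.62 for p53R172H/- over p53-/-), so those say nothing on stability. The number of genes called was 23 with the muscle level as a covariate and 2 with the fibroblast level for p53R172H/- over p53-/-, and 6 with the fibroblast level for both groups over p53-/-, against 0 without. With 1 tumor left out in turn it was 0 to 1 for both groups over p53-/-, and the probe sets called were 0 to 51 for p53R172H/- over p53-/-, 0 to 77 for p53R172H/+ over p53-/-, 0 to 7 for p53R172H/- over p53R172H/+ and 0 to 119 for both groups. The single gene was called without p53R172H/+ tumor 3. The highest counts of probe sets came without p53-/- tumor 3, apart from the 7, which came without p53R172H/- tumor 1. The cause was not tested.

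Among the 8 kinesins of the main fit, signs turned for Kif2c, Kif4 and Kif22 only. Kif2c for p53R172H/- over p53-/- was 0.13 with the mean of its probe sets and 0.0092 with the muscle level as a covariate, and -0.32 to 0.041 with 1 tumor left out. Without x_at probe sets it was -0.17 for p53R172H/+ over p53-/-, 0.10 for p53R172H/- over p53R172H/+ and -0.12 for both groups over p53-/-. With the mean of its probe sets it was 0.024 for p53R172H/- over p53R172H/+. Kif4 was -0.086 for p53R172H/- over p53R172H/+ with the fibroblast level as a covariate. With 1 tumor left out Kif4 ran from -0.040 to 0.16 for p53R172H/+ over p53-/-, Kif22 from -0.015 to 0.13 for p53R172H/- over p53R172H/+, and Kif2c from -0.10 to 0.17 for both groups over p53-/-. Where the signal lies near the floor, as for Kif15, a difference could not be measured in full. A further limma fit left out probe sets below the floor in all tumors. For p53R172H/- over p53-/- it gave Kif15 -0.42 (unadjusted p = 0.043, adjusted p = 0.355). Kif20b had 0.88 there (unadjusted p = 0.0011, adjusted p = 0.296).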
